A study of Drosophila melanogaster with 27 samples.

Results

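The genes dpp, tkv, brk, Dad and Mad of the Dpp pathway, and wg, Wnt6, fz, fz3 and nkd of the Wingless pathway, 10 in all, were followed in eye-antennal discs of Drosophila melanogaster. They were found on the arrays as the spots whose identifier was the CG number or the symbol of one of the 10 genes. This gave 10 of the 11510 genes named on the arrays and 12 of the 16500 probes with values. By this rule dpp and wg each had a probe under the CG number (CG9885 and CG4889) and another under the symbol. The other 8 genes had 1 probe each. Spots under older identifiers of fz and nkd fell outside the rule and are described in the closing section. In the RefSeq gene table for release 6 of the genome, dpp, tkv, Mad, wg and Wnt6 lie on chromosome arm 2L, fz and nkd on 3L, Dad on 3R, and brk and fz3 on X. The genome build behind the array design was not given in the sources used here, so no coordinates are printed.

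Dpp is a secreted BMP ligand. It binds a receptor complex that contains Thickveins (Tkv), and the activated receptor phosphorylates the transcription factor Mad, which induces targets such as the inhibitory Smad Dad and keeps the repressor Brinker (brk) off. Wingless (Wg) and Wnt6 are Wnt ligands, Frizzled (Fz) is a Wingless receptor that also acts in planar polarity, and fz3 and nkd are known as genes induced by Wingless signalling, nkd encoding a feedback inhibitor. In the eye disc, Dpp is made at the morphogenetic furrow, behind which photoreceptors differentiate, and Wingless is made at the lateral margins ahead of the furrow, where it holds back furrow initiation.

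The study hybridised 27 two-colour arrays, each with 1 test RNA against a common reference RNA from eye-antennal discs of an isogenized w1118 stock, a strain with normal eye development apart from pigment. The 9 test conditions were microdissected fragments of w1118 eye discs posterior to the furrow (4 arrays) and whole discs of 8 mutant conditions. The homozygous discs were ato1 (3 arrays), hh1 (4), roDom, that is roughDominant (3), and E(roDom)2033 (3), the heterozygous discs were roDom (2) and E(roDom)2033 (2), and roX63 (3) and Su(roDom)519 discs (3) had no stated zygosity. All discs came from larvae at the wandering stage, each sample was a few discs, and the number of animals behind a sample was not stated. The series text groups ato1, hh1, roDom and E(roDom)2033 as stop-furrow genotypes with fewer photoreceptors and roX63 and Su(roDom)519 as genotypes with extra R8 cells, R8 being the photoreceptor that founds each facet. The 13 homozygous stop-furrow arrays and the 6 extra-R8 arrays are compared below as 2 classes. The 2033 lesion is labelled uncharacterized, and replicates 2 and 3 of its homozygotes carry a conflicting heterozygous label in another field. Test RNA had 2 rounds of linear amplification and reference RNA 1, so a difference from the reference holds that step too, whereas it cancels between conditions. No w1118 whole-disc sample was hybridised as a test, so the reference counts as 1 control sample whose own spread is not in the tests.

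Each value below is the log2 ratio of test over reference after background correction and loess normalization, and 1 log2 unit is a doubling. Values of single arrays are not adjusted for dye unless stated. The share of arrays with test RNA in the dye Cy5 differed between groups. Fitted values are given ± SE from limma with a term for dye, adjusted p-values are Benjamini-Hochberg values over the 16494 probes tested, and a change was called at an adjusted p under 0.05. The p-values measure the spread between arrays. The series text calls the replicates independent. A ratio for whole tissue cannot tell fewer expressing cells from less RNA per cell. Spots were counted as detected when the median lay over 2 SD above the local background. On 26 of the arrays, 58.5% to 93.0% of probes were detected in the test channel. Replicate 1 of the posterior fragments, printed in another layout (6th array series), stood apart at 42.3%, with a median net test signal of 27 intensity units. Of the markers, the mean log2 ratio of 7 photoreceptor genes was 0.52 to 0.93 on the posterior arrays, -1.62 to -1.23 on the ato1 arrays and -1.45 to -1.31 on those of E(roDom)2033 homozygotes. The other stop-furrow discs were less low, at -0.67 to -0.59 in roDom homozygotes and -0.44 to -0.17 in hh1. The hh1 range lay within that of Su(roDom)519 (-0.55 to -0.15) and overlapped that of roX63 (-0.43 to 0.04). The 8 genes listed as antennal markers did not separate the posterior fragments from the whole-disc reference: none passed, their median difference was -0.15 and their array means ran from -0.26 to 0.17. Whether these genes are confined to the antennal part was not tested, so they do not check the label of an eye fragment. The probe for hh was at -1.68 to -0.84 in the 4 hh1 arrays, but also below 0 on every array of the other 7 mutant conditions (-1.40 to -0.36). In ato1 discs the ato probe was at 0.04, 0.03 and -0.26, and in roX63 discs the ro probe was at 0.16, -0.24 and -0.17. The ro probe was at 0.91 and 1.17 in roDom heterozygotes, but at 0.06, -0.04 and 0.40 in roDom homozygotes. Where these probes lie relative to the lesions is not given, so they do not check the labels.

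**Figure D1:**
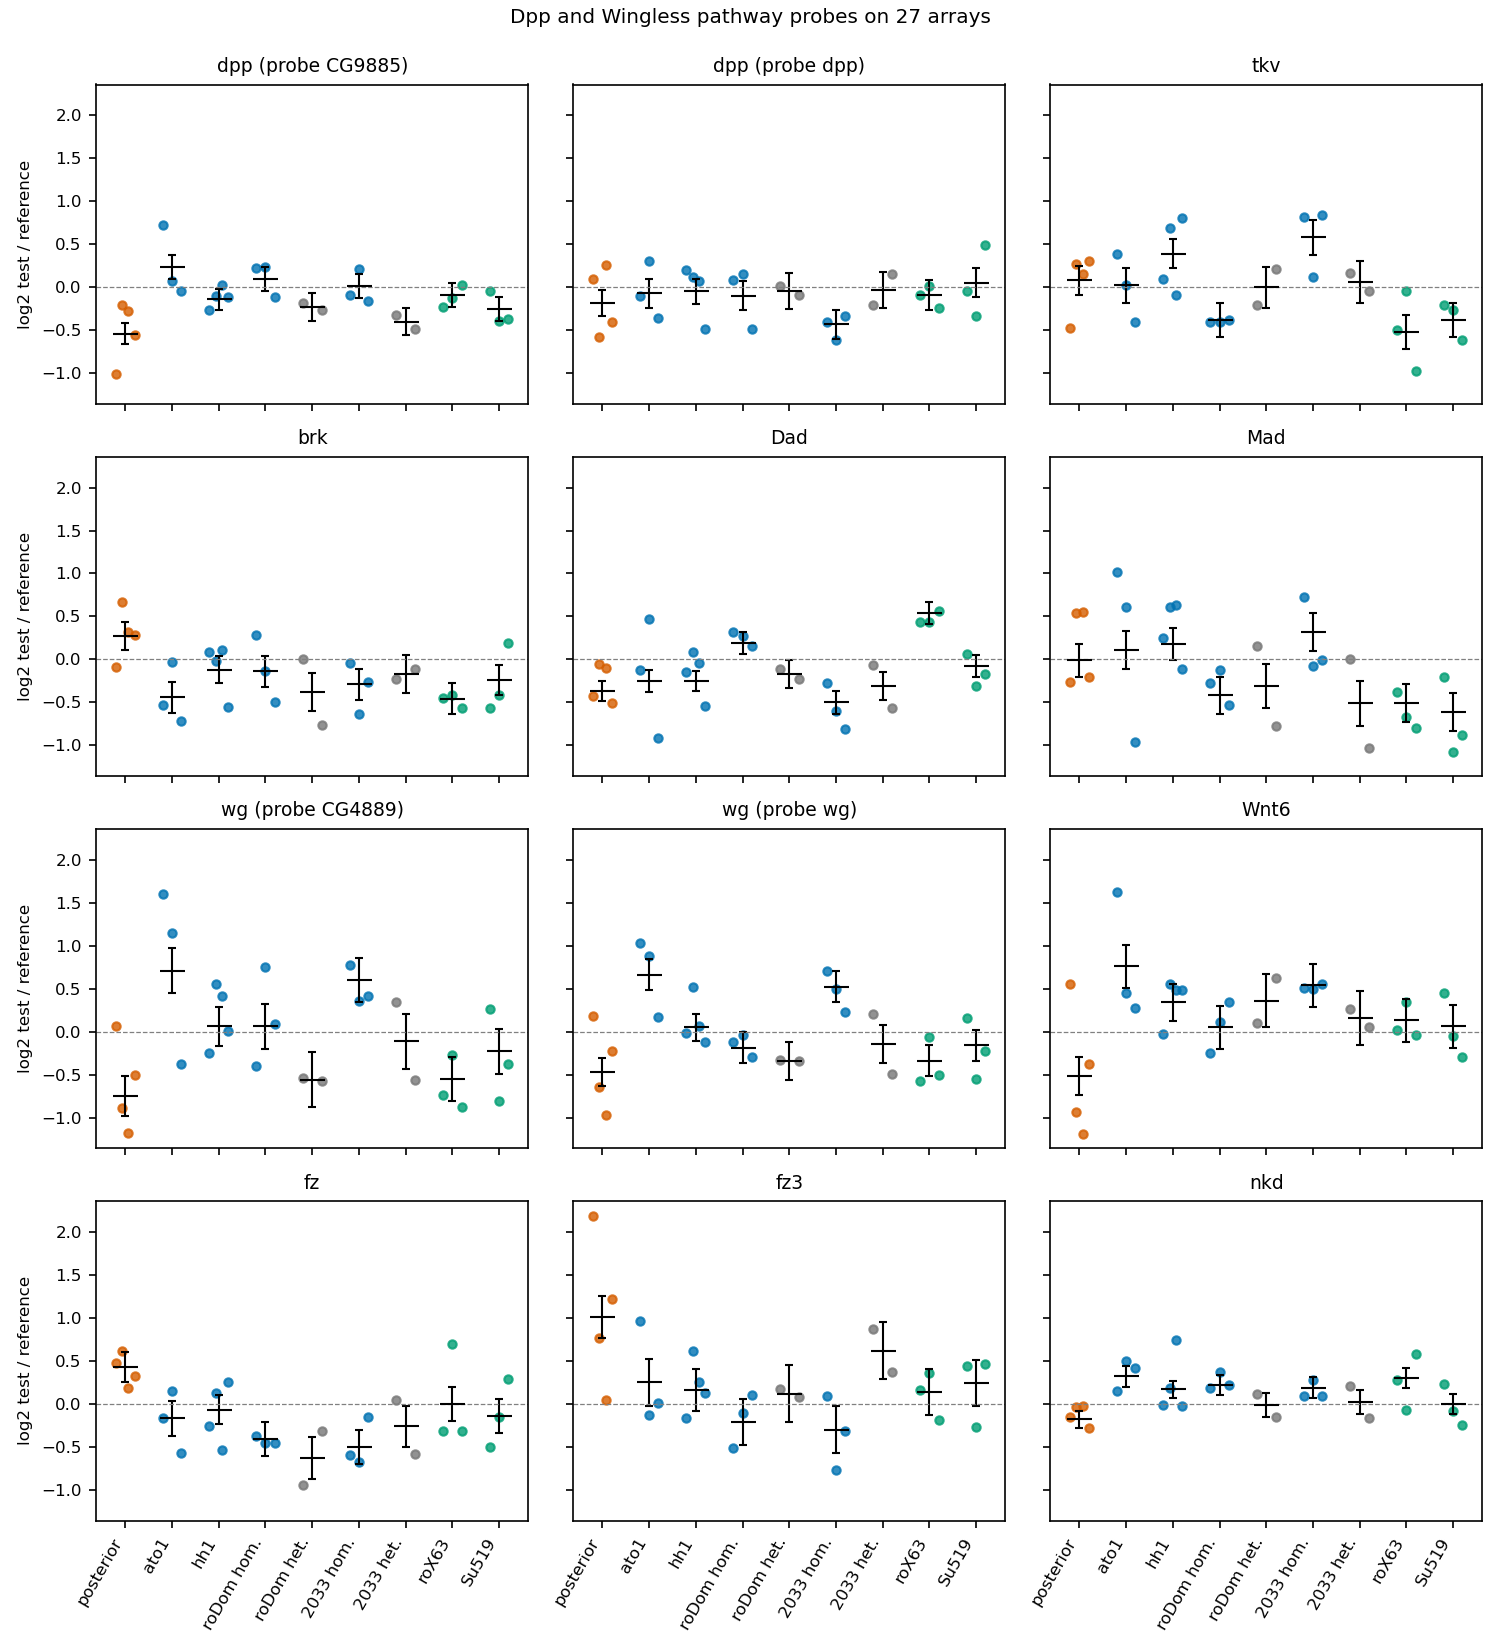
Log2 test over reference (vertical axis) of the 12 probes in the 9 conditions (horizontal axis; hom., homozygotes; het., heterozygotes; 2033, E(roDom)2033; Su519, Su(roDom)519). Points are single arrays, orange for posterior fragments, blue for stop-furrow homozygotes, green for extra-R8 genotypes and grey for heterozygotes, and black bars are fitted means ± SE. The posterior arrays hold the lowest fitted mean of wg (both probes), Wnt6, nkd and dpp (CG9885), and the highest of fz, fz3 and brk, while Dad was highest in roX63.

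The ligand gene dpp was lower in the posterior fragments than in the reference on its CG9885 probe, which was detected in the test channel on 26 of 27 arrays. The posterior arrays read -1.01, -0.21, -0.28 and -0.56, the second of them detected in neither channel (net signal 2 in test and 10 in reference). The fitted value was -0.54 ± 0.12, a 1.46-fold lower level (adjusted p = 0.0092). All 4 arrays lay below the reference, the undetected spot among them. The ato1 arrays read 0.72, 0.07 and -0.05 and the hh1 arrays -0.27, -0.10, 0.02 and -0.11. Homozygous roDom discs gave 0.22, 0.23 and -0.12, and those of E(roDom)2033 homozygotes -0.09, 0.21 and -0.16. The stop-furrow arrays thus straddled the reference, and the posterior range overlapped theirs only between -0.27 and -0.21. The upper end of the posterior range is the undetected spot. The roX63 arrays, at -0.23, -0.13 and 0.03, and the Su(roDom)519 arrays, at -0.04, -0.39 and -0.37, lay mostly below the reference without a call. The heterozygotes read -0.18 and -0.27 for roDom and -0.32 and -0.49 for E(roDom)2033. The order of fitted values ran from 0.23 ± 0.14 in ato1 to -0.54 ± 0.12 in posterior fragments, and the arrays of every pair of neighbours in that order overlapped.

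The second dpp probe did not follow the first. It was detected in the test channel on 12 and in the reference on 15 of 27 arrays, ranged from -0.61 to 0.49, and passed in no comparison. The dye-adjusted values of both probes had a Pearson correlation of -0.12 over the 27 arrays, which share 1 reference RNA. For posterior fragments against stop-furrow discs, the symbol probe differed by -0.02 ± 0.17 (95% interval -0.38 to 0.34) where the CG9885 probe differed by -0.59 ± 0.13. What is said of dpp therefore rests on the CG9885 probe. Without posterior replicate 1, its value against the reference was -0.37 (adjusted p = 0.082), and without replicate 4 it was -0.56 (adjusted p = 0.063).

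Both probes of wg and the probe of Wnt6 shared one pattern: low in posterior fragments and high in ato1 and E(roDom)2033 homozygous discs. On the CG4889 probe of wg, posterior fragments read 0.06, -0.89, -1.18 and -0.51, and ato1 discs 1.60, 1.15 and -0.38. E(roDom)2033 homozygotes read 0.78, 0.36 and 0.42, hh1 discs -0.25, 0.56, 0.41 and 0.01, and roDom homozygotes -0.40, 0.75 and 0.09. In each of these groups except E(roDom)2033 the arrays lay on both sides of the reference, and posterior replicate 1 was the one posterior array not below it. The ato1 array below the reference, replicate 3, was the only ato1 array with test RNA in Cy5. This probe had a dye coefficient of -0.24, and the part of dye in that split was not tested. Of the extra-R8 discs, those of roX63, at -0.74, -0.27 and -0.88, were closer to the posterior fragments (fitted -0.55 ± 0.26). The Su(roDom)519 discs, at 0.26, -0.81 and -0.38, lay between (fitted -0.23 ± 0.26), nearer to hh1 and roDom homozygotes (both 0.06). The heterozygotes gave -0.54 and -0.58 for roDom and 0.34 and -0.56 for E(roDom)2033. Fitted values ran from 0.71 ± 0.26 in ato1 to -0.75 ± 0.23 in posterior fragments, and neither differed from the reference by the adjusted test (adjusted p = 0.099 and 0.072).

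The symbol probe of wg had the same conditions at the ends of its order (ato1 and E(roDom)2033 homozygotes highest, posterior fragments lowest), with other conditions ranked differently between, and the dye-adjusted values of both wg probes correlated at 0.92 over the 27 arrays, with the same sign on 23. Its posterior arrays read 0.18, -0.65, -0.97 and -0.23, and its ato1 arrays 1.03, 0.88 and 0.17. In ato1 discs the fitted value was 0.66 ± 0.18, or 1.58-fold above the reference (adjusted p = 0.025), and 0.79 ± 0.19 above the mean of the other 8 conditions (adjusted p = 0.026). All 3 ato1 arrays lay above the reference. Both calls needed ato1 replicates 1 and 2: without replicate 1 the values were 0.53 (adjusted p = 0.16) and 0.66 (adjusted p = 0.14), and without replicate 2 they were 0.60 (adjusted p = 0.11) and 0.73 (adjusted p = 0.11). E(roDom)2033 homozygotes, at 0.71, 0.50 and 0.23, came next in the order with 0.52 ± 0.18 (adjusted p = 0.067).

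Wnt6 encodes another Wnt ligand, and in RefSeq release 6 it is the next protein-coding gene after wg on arm 2L. Its posterior arrays read 0.55, -0.93, -1.19 and -0.38, and the ato1 arrays 1.62, 0.45 and 0.28. The E(roDom)2033 homozygotes read 0.51, 0.50 and 0.55 and the hh1 discs -0.03, 0.56, 0.48 and 0.49. As with wg, posterior replicate 1 went against the other 3 posterior arrays, while ato1, E(roDom)2033 homozygous and all hh1 arrays but replicate 1 lay above the reference. The roDom homozygotes gave -0.25, 0.11 and 0.34, their heterozygous counterparts 0.10 and 0.62, and E(roDom)2033 heterozygotes 0.26 and 0.05. In extra-R8 discs Wnt6 read 0.02, 0.34 and -0.04 in roX63 and 0.45, -0.05 and -0.30 in Su(roDom)519. Posterior fragments were 0.82 ± 0.24 log2 units, 1.76-fold, below the mean of the other 8 conditions (-0.82, adjusted p = 0.037). That call was lost without posterior replicate 2 (-0.66, adjusted p = 0.18), replicate 3 (-0.58, adjusted p = 0.23) or replicate 4 (-0.90, adjusted p = 0.095), and, closer to the threshold, without roDom homozygote replicate 3, E(roDom)2033 heterozygote replicate 1 or Su(roDom)519 replicate 1 (-0.81 to -0.78, adjusted p = 0.05 to 0.057).

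**Figure D2:**
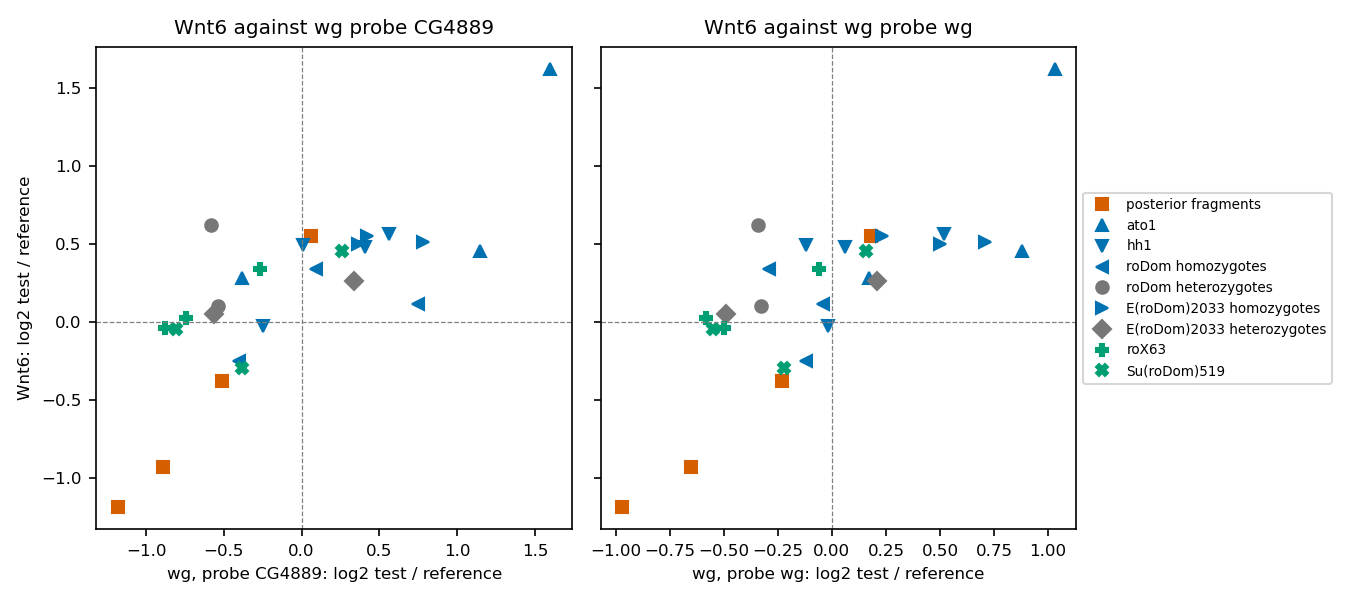
Log2 test over reference of Wnt6 (vertical axis) against each wg probe (horizontal axes) on the 27 arrays, with 1 symbol per condition and the colours of the plot of member values. Arrays high for wg are high for Wnt6: ato1 replicate 1 is highest on all 3 probes, posterior replicates 2 and 3 are at the other end, and posterior replicate 1 lies apart from the other posterior arrays.

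Among 7127 named genes with a probe measured on all 27 arrays, wg (CG4889) was the gene whose dye-adjusted values followed Wnt6 most closely, with a Pearson correlation of 0.80. Wnt6 was second for both wg probes (0.80 and 0.78), behind the small heat shock protein gene Hsp23 (0.82 and 0.78). These are descriptions over arrays that share a reference RNA and differ in condition. Wnt4 and Wnt10, the other Wnt genes in this stretch of 2L, were looked up after the values of wg and Wnt6 had been seen. Wnt4 differed by 0.45 ± 0.16 between posterior fragments and stop-furrow discs (adjusted p = 0.092), in the direction opposite to wg and Wnt6, and Wnt10 by -0.04 ± 0.07 (adjusted p = 0.85).

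The receptor gene tkv, encoding a type I BMP receptor, had no call against the reference. It ranged from -0.97 to 0.84 over the 27 arrays. E(roDom)2033 homozygotes stood highest at 0.82, 0.12 and 0.84, a fitted 0.58 ± 0.20 (adjusted p = 0.057), and roX63 discs lowest at -0.50, -0.05 and -0.97, a fitted -0.52 ± 0.20 (adjusted p = 0.099). These groups, picked as the ends of the order, did not overlap, but every pair of neighbours in the order did. Within the stop-furrow class the conditions disagreed, since all 3 roDom homozygous arrays lay between -0.41 and -0.38 while hh1 discs read 0.09, 0.69, -0.09 and 0.80. The high arrays, hh1 replicates 2 and 4 and E(roDom)2033 homozygote replicates 1 and 3, shared 1 scanning day. Their dye-adjusted means were 0.75 and 0.83, against -0.05 and 0.09 for these genotypes on another day. An ato1 array of the shared day was at 0.06. The part of scanning day in these values was not tested. The named genes most like tkv over the 27 arrays were mr and eEF1alpha1, the latter encoding a translation elongation factor (Pearson correlation 0.92 for both).

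On the probe under its current CG number, the Wingless receptor gene fz was higher in posterior fragments than in the mean of the other conditions. A spot under an older identifier of fz was not called between posterior fragments and stop-furrow discs (0.14, adjusted p = 0.74 by limma). On the current probe, the 4 posterior arrays read 0.47, 0.61, 0.19 and 0.32. The ato1 arrays gave -0.16, 0.15 and -0.57, the hh1 arrays -0.26, 0.13, -0.54 and 0.26, the roDom homozygotes -0.38, -0.45 and -0.46, and the E(roDom)2033 homozygotes -0.59, -0.68 and -0.15. All posterior arrays were above the reference, and among the 13 stop-furrow arrays only hh1 replicate 4 reached into the posterior range. In roX63 discs fz read -0.32, 0.70 and -0.32, and in Su(roDom)519 discs -0.50, -0.15 and 0.29. The heterozygotes read -0.94 and -0.32 for roDom, the lowest fitted value of the 9 conditions (-0.63 ± 0.24, adjusted p = 0.15), and 0.05 and -0.58 for E(roDom)2033. Posterior fragments lay 0.70 ± 0.19 above the mean of the other conditions, or 1.63-fold (adjusted p = 0.021), but 0.43 ± 0.17 above the reference did not pass (adjusted p = 0.21). The first call was lost without posterior replicate 1 (0.67, adjusted p = 0.063), replicate 2 (0.62, adjusted p = 0.096) or replicate 4 (0.78, adjusted p = 0.056). It was also lost on the 7th array series alone (0.66, adjusted p = 0.10), with array series as a block (0.66, adjusted p = 0.081), and with scanning day as a random block (0.65, adjusted p = 0.095) or a fixed one (0.11, adjusted p = 0.93).

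The frizzled family gene fz3 had the highest single value of the 12 probes, 2.19 on posterior replicate 1. The other posterior arrays read 0.77, 0.05 and 1.22. The fitted value was 1.01 ± 0.24, a 2.01-fold higher level than the reference (adjusted p = 0.017), and all 4 arrays lay above it. Against the mean of the other conditions it was 0.88 ± 0.26 higher (adjusted p = 0.039). Among stop-furrow discs, ato1 read 0.97, -0.13 and 0.01, hh1 -0.16, 0.62, 0.25 and 0.13, roDom homozygotes -0.51, -0.11 and 0.10, and E(roDom)2033 homozygotes 0.09, -0.77 and -0.32. These overlapped the posterior range at its lower end, as did roX63 (0.16, 0.36 and -0.19), Su(roDom)519 (0.44, -0.27 and 0.46) and the heterozygotes (0.08 to 0.87). Without posterior replicate 1 the values were 0.66 against the reference (adjusted p = 0.14) and 0.53 against the other conditions (adjusted p = 0.24), and without replicate 4 they were 0.87 (adjusted p = 0.18) and 0.74 (adjusted p = 0.24). The call against the other conditions was also lost at 0.83 to 0.99 (adjusted p = 0.054 to 0.06) without posterior replicate 2, roDom heterozygote replicate 1, E(roDom)2033 heterozygote replicate 2 or roX63 replicate 3. Both calls were lost on the 7th array series alone (0.66 and 0.49, adjusted p = 0.15 and 0.32). They were also lost with scanning day as a random block (0.98 and 0.84, adjusted p = 0.093 and 0.18), and as a fixed block their values changed sign (-0.13 and -0.46).

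Mad, the transcription factor that carries the Dpp signal, was called in no comparison. It ranged from -1.08 to 1.02, and the ato1 arrays alone, at 1.02, 0.61 and -0.96, spanned most of that. The Mad probe also had the largest dye coefficient of the 12 probes (-0.33), and the ato1 array at -0.96 was the only one of its group with test RNA in Cy5. Its lowest fitted value was that of Su(roDom)519, where all arrays were below the reference at -0.21, -1.08 and -0.88 (-0.61 ± 0.22, adjusted p = 0.12). The roX63 arrays were likewise all below it at -0.38, -0.67 and -0.80 (-0.51 ± 0.22, adjusted p = 0.15).

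The Brinker gene brk, which Dpp signalling represses, was highest in posterior fragments (-0.09, 0.67, 0.32 and 0.28) and had no call against the reference. Its fitted value there was 0.27, and the lowest was -0.46 in roX63 (-0.45, -0.42 and -0.57; adjusted p = 0.11). Against stop-furrow discs the posterior fragments differed by 0.52 ± 0.18, with a 95% interval of 0.14 to 0.89 (adjusted p = 0.092). Thus dpp on its CG9885 probe and brk were at opposite ends in the posterior fragments, of which only dpp was called.

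Dad, the inhibitory Smad that Dpp signalling induces, changed in 2 mutant genotypes and in opposite directions. The roX63 arrays read 0.44, 0.44 and 0.56, a fitted 0.54 ± 0.13, or 1.46-fold above the reference (adjusted p = 0.0085). The E(roDom)2033 homozygotes read -0.28, -0.60 and -0.81, a fitted -0.50 ± 0.13, or 1.42-fold below it (adjusted p = 0.014). These groups, the highest and lowest of the 9 conditions, did not overlap. Among all other arrays only ato1 replicate 2, at 0.47, reached the roX63 range, and the other ato1 arrays read -0.12 and -0.92. The roDom homozygotes came second at 0.32, 0.27 and 0.16. Both steps of the order from roX63 to roDom homozygotes and from these to Su(roDom)519 (0.06, -0.31 and -0.17) were between groups whose arrays did not overlap. The hh1 arrays read -0.15, 0.09, -0.04 and -0.54, the posterior arrays -0.43, -0.05, -0.10 and -0.51, and the heterozygotes -0.56 to -0.07. Compared with the mean of the other conditions, Dad in roX63 was 0.76 ± 0.14 higher, 1.70-fold (adjusted p = 0.0049), and this call held when any single array was left out (0.71 to 0.86) but not without the dye term (0.68, adjusted p = 0.06).

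Markers of other tissues moved with Dad in roX63. Of 6 muscle genes, 4 rose there against the reference, with Mhc, the myosin heavy chain, at 3.63 ± 0.61 and Mlc2 at 2.89 ± 0.57, and the mean of the 6 was 1.26 to 2.36 per array. On the arrays of the other 8 conditions it was -0.27 to 2.17. Of 5 fat body genes 2 rose, with Fbp2 at 3.36 ± 0.82. Their array means reached 2.24 in roX63, but also 2.22 in E(roDom)2033 heterozygotes and 2.11 in ato1. All 6 muscle genes were detected on all 3 roX63 arrays. The same held for every array of hh1, of both heterozygous conditions and of E(roDom)2033 homozygotes. The part of these tissues in the Dad result was not tested. The call against the reference was lost without roX63 replicate 1 (0.50, adjusted p = 0.063) or 2 (0.50, adjusted p = 0.061), without the dye term (0.48, adjusted p = 0.076) and with array series as a block (0.46, adjusted p = 0.11). That in E(roDom)2033 homozygotes was lost without its replicate 1 (-0.53, adjusted p = 0.10) or 3 (-0.44, adjusted p = 0.13), and when replicates 2 and 3 of those homozygotes were read as heterozygous (-0.47, adjusted p = 0.30).

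The nkd gene, whose product restrains Wingless signalling, moved little: its 27 values lay between -0.28 and 0.74. All posterior arrays were just below the reference, at -0.15, -0.04, -0.03 and -0.28, while ato1 discs read 0.15, 0.50 and 0.42 and hh1 discs -0.01, 0.18, 0.74 and -0.03. The roDom homozygotes read 0.18, 0.37 and 0.22 and the E(roDom)2033 homozygotes 0.09, 0.28 and 0.09, and the lowest stop-furrow array met the highest posterior one at -0.03. No condition passed against the reference, the highest being ato1 at 0.32 ± 0.12 (adjusted p = 0.089).

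Against the reference, 5 of 108 tests (12 probes in 9 conditions) were called, or 4.63%, where 6.97% of all probe tests were. The count was 2 of 12 for posterior fragments (4.60% of all probes called), and 1 each for ato1 (10.1%), E(roDom)2033 homozygotes (13.2%) and roX63 (12.8%). It was 0 by limma for hh1 (5.37%), roDom homozygotes (4.03%), roDom heterozygotes (4.89%), E(roDom)2033 heterozygotes (3.41%) and Su(roDom)519 (4.40%), where 2, 0, 1, 1 and 1 probes in that order had an unadjusted p under 0.05. The members' share was thus below that of all probes. Against the mean of the other 8 conditions, 6 of 108 were called (5.56%, against 2.54% of all probes): 4 in posterior fragments (8.63%), wg in ato1 (3.49%) and Dad in roX63 (2.56%). In the other 6 conditions, where 1.93% (hh1), 0.503% (roDom homozygotes), 0.0485% (roDom heterozygotes), 5.10% (E(roDom)2033 homozygotes), 0.176% (E(roDom)2033 heterozygotes) and 0.461% (Su(roDom)519) of all probes were called, no member was. For dpp that was -0.45 ± 0.13 in posterior fragments (adjusted p = 0.034), lost without posterior replicate 1 (-0.28, adjusted p = 0.21) or 4 (-0.46, adjusted p = 0.12), or, just at the threshold, without E(roDom)2033 heterozygote replicate 1 (-0.44, adjusted p = 0.05) or Su(roDom)519 replicate 1 (-0.43, adjusted p = 0.052). The count of 5 became 10 without ato1 replicate 3, 8 without posterior replicate 1 or hh1 replicate 3 and 3 without posterior replicate 4, and the count of 6 became 3 without posterior replicate 2 and 2 without replicate 4.

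The comparison of posterior fragments, which hold differentiating cells, with stop-furrow discs gave more called members than any other comparison made. Of the 12 probes, 7 were called, 58.3%, where 8.16% of all probes were, and they belong to 6 genes. The ligands were lower in posterior fragments: wg by 1.11 ± 0.26 log2 units on CG4889 (-1.11, 2.16-fold, adjusted p = 0.0089) and 0.74 ± 0.18 on its other probe (-0.74, adjusted p = 0.012), Wnt6 by 0.94 ± 0.25 (-0.94, 1.92-fold, adjusted p = 0.020) and dpp on CG9885 by 0.59 ± 0.13 (-0.59, adjusted p = 0.0068). The receptors fz3 and fz were higher, by 1.03 ± 0.27 (2.05-fold, adjusted p = 0.019) and 0.71 ± 0.19 (1.64-fold, adjusted p = 0.024). The feedback inhibitor nkd was lower (-0.40 ± 0.11, 1.32-fold, adjusted p = 0.032). Spots under older identifiers of fz and nkd, outside the rule, did not repeat these calls. They differed by 0.14 (adjusted p = 0.74) and -0.01 (adjusted p = 0.97). Among the genes without a call, the intervals were -0.48 to 0.34 for tkv, -0.43 to 0.11 for Dad and -0.50 to 0.39 for Mad.

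**Figure D3:**
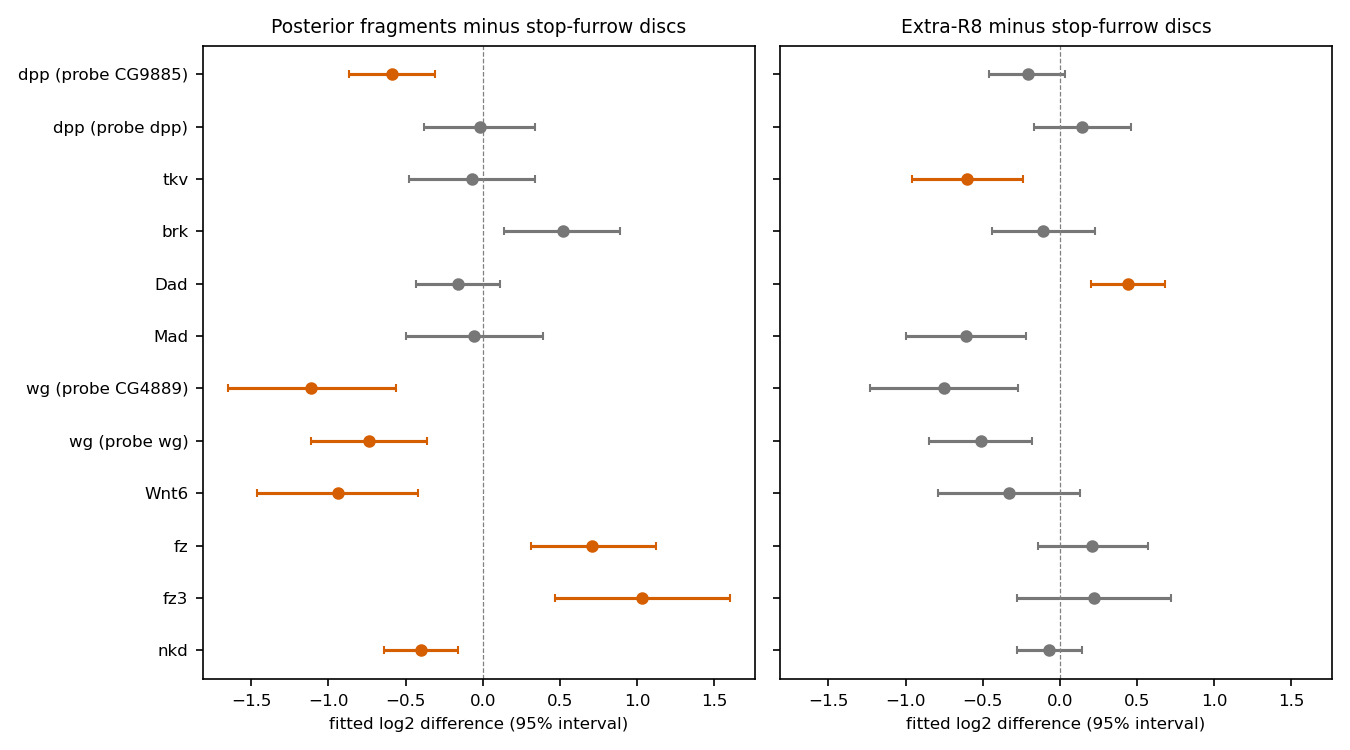
Fitted log2 differences (points) with 95% intervals (bars) of the 12 probes for posterior fragments minus stop-furrow discs (left) and extra-R8 minus stop-furrow discs (right), with calls at an adjusted p under 0.05 in orange. On the left the wg, Wnt6, dpp (CG9885) and nkd probes lie below 0 and fz and fz3 above it, and on the right only tkv (-0.60) and Dad (0.44) are called.

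Other changes ran alongside. In the same comparison 5 of 7 photoreceptor markers rose, with chp, a photoreceptor surface protein gene, at 3.19 ± 0.28. Of the 8 genes listed as antennal markers danr rose (1.54 ± 0.27) and al fell by 0.86 (-0.86 ± 0.24). Of the 6 eye field genes eya (2.01 ± 0.28) and so (1.11 ± 0.23) rose and toy fell by 2.25 (-2.25 ± 0.38), and of 4 glial genes measured loco (1.51 ± 0.21) and nrv2 (0.69 ± 0.21) rose. By the labels the fragments were cut posterior to the furrow, whereas the stop-furrow samples are whole discs, so genotype and dissected region cannot be told apart here, and the part of tissue makeup in the wg, Wnt6 and dpp differences was not tested.

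Single arrays and batches touched these calls unequally. Without posterior replicate 1, the array that stands apart, wg was at -1.30 (adjusted p = 0.0056) and -0.91 (adjusted p = 0.0033), Wnt6 at -1.27 (adjusted p = 0.0010) and dpp at -0.42 (adjusted p = 0.047), whereas fz (0.68, adjusted p = 0.073), fz3 (0.68, adjusted p = 0.13) and nkd (-0.37, adjusted p = 0.10) were not called. Without replicate 2 the calls of wg (-0.98 and -0.64, adjusted p = 0.053 and 0.072), Wnt6 (-0.79, adjusted p = 0.11), fz (0.63, adjusted p = 0.11) and nkd (-0.41, adjusted p = 0.075) were lost, which left 2 of the 7. Without replicate 3 those of wg (-0.89 and -0.53, adjusted p = 0.067 and 0.097), Wnt6 (-0.70, adjusted p = 0.14) and nkd (-0.42, adjusted p = 0.071) were lost, and without replicate 4 those of Wnt6 (-1.02, adjusted p = 0.051), fz (0.79, adjusted p = 0.053), fz3 (0.90, adjusted p = 0.13) and nkd (-0.41, adjusted p = 0.11), leaving 3 in each case. The dpp call held in all 27 such fits but not on the 7th array series alone (-0.36, adjusted p = 0.091) or with array series as a block (-0.40, adjusted p = 0.083). The fz call was lost on the 7th series (0.67, adjusted p = 0.15), with the series block (0.66, adjusted p = 0.12) and with scanning day as a fixed block (0.54, adjusted p = 0.53). That of fz3 was lost in 6 of 14 other settings. Among these were the 7th series (0.59, adjusted p = 0.26), the series block (0.58, adjusted p = 0.23) and day as a random block (0.99, adjusted p = 0.084). The wg symbol probe lost its call with day as a fixed (-1.19, adjusted p = 0.15) or random block (-0.73, adjusted p = 0.052). The nkd call was lost in 11 of 14 other settings, among them the fit without a dye term (-0.37, adjusted p = 0.11) and print-tip loess (-0.32, adjusted p = 0.056). On the one scanning day that held both classes, with 3 posterior arrays against a single ato1 array, the differences were -2.30 and -1.56 for wg, -2.41 for Wnt6, -1.03 for dpp, 0.48 for fz, -0.19 for nkd and -0.22 for fz3, so that fz3 alone changed sign. That array, ato1 replicate 1, was the highest of all 27 on both wg probes, Wnt6 and dpp (CG9885), so the larger differences of these genes on that day rest on it.

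**Figure D4:**
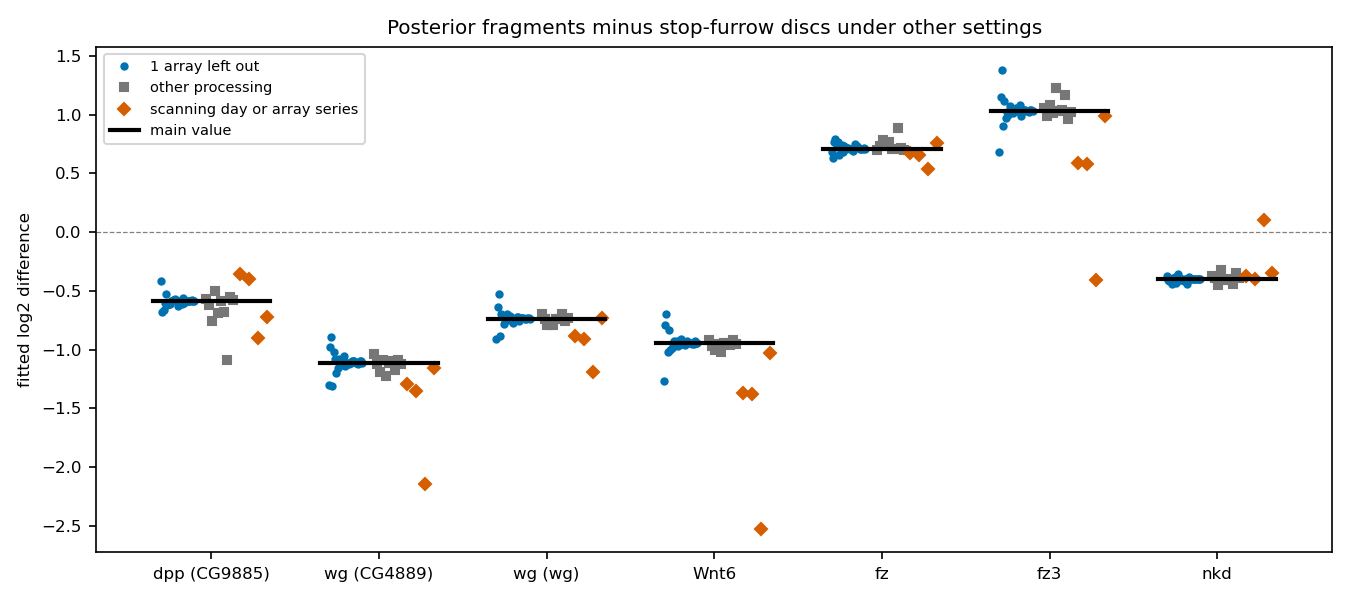
Fitted log2 difference between posterior fragments and stop-furrow discs (vertical axis) for the 7 called probes (horizontal axis) in the main fit (black line), with 1 array left out (blue), under other processing (grey) and with scanning day or array series as a block or the 7th series alone (orange). Both wg probes, Wnt6, dpp and fz kept their sign under all of these, while fz3 (-0.41) and nkd (0.10) crossed 0 with scanning day as a fixed block.

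Extra-R8 discs were compared with the same 13 stop-furrow arrays, so both comparisons share those arrays. Of the 12 probes 2 were called (7.50% of all probes). Dad was 0.44 ± 0.11 higher in extra-R8 discs (1.36-fold, adjusted p = 0.022). The roX63 arrays read 0.44 to 0.56, and those of Su(roDom)519 lay within the stop-furrow range. The receptor gene tkv was lower (-0.60 ± 0.17, 1.52-fold, adjusted p = 0.037), with all 6 extra-R8 arrays below the reference. The probes of wg, at -0.75 ± 0.23 and -0.51 ± 0.16 (adjusted p = 0.052 and 0.055), and Mad, at -0.61 ± 0.19 (adjusted p = 0.052), missed the threshold narrowly. Wnt6 differed by -0.33 ± 0.22, with an interval of -0.79 to 0.13 that holds 0. On the 1 scanning day with both classes, 2 arrays against 2, Dad differed by 0.63 and tkv by 0.19, the opposite sign. The Dad call was lost without the dye term (0.34, adjusted p = 0.19), roX63 replicate 1 (0.42, adjusted p = 0.051) or Su(roDom)519 replicate 3 (0.42, adjusted p = 0.06), and the tkv call was lost in 11 of the 27 fits that left out 1 array, at -0.46 without roX63 replicate 3 (adjusted p = 0.20) and -0.62 to -0.54 without ato1 replicate 1 or 2, hh1 replicate 4, roDom homozygote replicate 1 or 2, E(roDom)2033 homozygote replicate 1 or 3, roX63 replicate 1, or Su(roDom)519 replicate 2 or 3 (adjusted p = 0.051 to 0.11). The count of 2 became 0 without Su(roDom)519 replicate 3, 1 without any of the other 10 arrays, 4 without posterior replicate 3 or roX63 replicate 2, and 5 without posterior replicate 1, ato1 replicate 3, hh1 replicate 1 or roDom homozygote replicate 3.

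No member was called by limma between discs mutant for the proneural gene ato and discs mutant for hh, a secreted signal that acts upstream of dpp (0 of 12; 3.11% of all probes called). The probes with an unadjusted p under 0.05 were 2, namely wg (symbol probe) at 0.60 ± 0.24 (adjusted p = 0.21) and dpp (CG9885) at 0.37 ± 0.18 (adjusted p = 0.31), both higher in ato1. The 95% intervals, 0.10 to 1.11 for that wg probe and -0.27 to 1.11 for Wnt6, leave room for differences as large as those called elsewhere.

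The rest of each pathway was read from lists of other genes, with 20 of 21 Dpp and BMP genes, all 24 Wingless genes, all 6 genes of the Activin branch and all 9 planar polarity genes measured. Between posterior fragments and stop-furrow discs, where 8.16% of all probes were called, 1 Dpp list gene rose and 2 fell (median -0.12, against -0.01 for all probes). Both that fell encode proteases of the tolloid family, which free BMP ligands from their antagonist: tok at -2.12 ± 0.26 and tld at -1.47 ± 0.24. The one that rose was Med, the partner Smad of Mad, at 0.69 ± 0.14. In the Wingless list 1 rose and 1 fell (median 0.00), a share close to that of all probes. Wnt2, another Wnt ligand gene, rose by 1.59 ± 0.25, the direction opposite to wg and Wnt6, and the glypican gene dlp fell by 0.63 on one probe (-0.63 ± 0.12) where its other probe was at -0.12. Of the Activin branch, Actbeta was higher (0.37 ± 0.10) and the ligand gene mav lower (-0.83 ± 0.17), and of the planar polarity genes pk was higher on the brightest of its 5 probes (0.54 ± 0.14, the others -0.12 to 0.08).

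In roX63 discs, where Dad rose, 8 of the 24 Wingless list genes fell against the reference and 1 rose, where 12.8% of all probes were called, with a list median of -0.13 against 0.00 for all probes. The largest changes were those of lgs (-1.07 ± 0.22), an adaptor of the nuclear Armadillo complex, Wnt2 (-1.06 ± 0.25), Apc (-1.06 ± 0.21), a scaffold of the complex that degrades Armadillo, and wls (-0.94 ± 0.21), which is needed for Wnt secretion. Of the Dpp list 3 fell and none rose: the receptor genes put (-0.86 ± 0.19) and sax (-0.63 ± 0.18) and emc (-0.83 ± 0.25). E(roDom)2033 homozygotes, where Dad fell and 13.2% of all probes were called, had 5 of 24 Wingless list genes lower and 1 higher (median -0.10), with Wnt2 at -1.67 ± 0.25, nmo at -1.63 ± 0.44, Apc at -1.05 ± 0.21 and wls at 0.64 ± 0.21, and 3 of 20 Dpp list genes lower and 2 higher (median 0.05), with tld at 1.02 ± 0.25, magu at 0.74 ± 0.19, Med at -0.65 ± 0.14 and sax at -0.64 ± 0.18. Apc was also lower in ato1 (-1.23 ± 0.21) and hh1 discs (-1.08 ± 0.18). Between extra-R8 and stop-furrow discs, where 7.5% of all probes were called, put fell by 0.71 (-0.71 ± 0.17) as the only Dpp list gene called. In that comparison the Wingless list had 2 genes higher, CkIalpha (0.80 ± 0.23, its other probes 0.04 to 0.82) and sgg (0.44 ± 0.07), and 2 lower, wls (-0.92 ± 0.18) and dlp (-0.45 ± 0.11, its other probe 0.13). Between ato1 and hh1 discs, where 3.11% of all probes were called, the called list genes were shn (0.48 ± 0.13) and sgg (0.59 ± 0.10), both higher in ato1.

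Outside these pathways, the named genes closest to each called member over the 27 arrays, by Pearson correlation, were nmdyn-D7 and Doc3 for dpp (0.78 and 0.77), Fim and p for fz (0.78 for both), sip3 and mah for fz3 (0.75 and 0.74), Nepl12 and Sin3A for Dad (0.85 and 0.76), and Dscam2 and L for nkd (0.74 for both). After wg, Wnt6 was followed most closely by bys (0.73).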

How the data were processed

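The authors' scanner files give median spot and background intensities in both channels, with a spot score and the percent of pixels above background. Per the labels' protocols, the arrays carry PCR products, and test and reference RNA were amplified by 2 and 1 rounds. The image software's scoring rules were not given in the sources used here. The value table the authors deposited holds log2 ratios, which ran as reference over test when set against the scanner values (correlations -0.99 to -0.87, leaving aside 1 column described in the closing section), with unstated scaling. Most slopes were near -1.15. The steepest were -1.57 for hh1 replicate 1, -1.37 for posterior replicate 1 and -1.27 for roDom homozygote replicate 1.

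From the deposited intensities, log ratios were computed with limma 3.58.1 in R 4.3.3: normexp background correction (offset 50), global loess within arrays (control spots and scores of -75 or less left out), the ratio turned to test over reference by the labelled dye (the file header of roDom homozygote replicate 2 gives the opposite dye order), and spots of one identifier averaged. One fit took 9 group means and a dye term, with eBayes and Benjamini-Hochberg adjustment within each comparison over probes measured on at least 2 arrays per group. Detection used the deposited background SD, not the percent column. Of the probes, 15499 were named through RefSeq locus tags (12714), symbols (34) or older synonyms (2751), and 1001 were not. The script was tested on simulated data.

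The members, the lists and the tests were chosen with earlier results of these data known. All probes of the 10 genes are described. From each list, up to 4 called genes with the largest change per comparison are named, and for each member called in any comparison the 2 named genes most like it. List genes with several probes are given by the brightest probe. The alternatives were 14 other settings and leaving out each array. No sequence is printed, since the sources used here held none for these probes.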

Additional observations from a re-analysis of the deposited data

Results flagged for a closer look

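Between posterior fragments and stop-furrow discs, a limma contrast of the log2 differences from the common reference found 7 probes that differ between these classes: dpp (CG9885) at -0.59, wg (CG4889) at -1.11, wg (symbol probe) at -0.74, Wnt6 at -0.94, fz at 0.71, fz3 at 1.03 and nkd at -0.40. Between extra-R8 and stop-furrow discs it found tkv at -0.60 and Dad at 0.44. Of 24 groups of 4 arrays examined for a stray sample, 1 had one: Wnt6 in hh1 replicate 1, at -0.03, lay apart from the other hh1 arrays (0.56, 0.48 and 0.49) by more than Dixon's 95% limit. Chance alone marks about 1 group in 20. That array belongs to the 5th series and had 58.5% of probes detected in the test channel, against 73.4% to 88.8% for the other hh1 arrays, and the part of this in its Wnt6 value was not tested.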

How the results depend on the processing

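Of 20 called member results, 20 kept their direction and call with a filter on dim probes or on all negative spot scores, 19 with the offset at 10, with print-tip loess and with scale normalization, 18 without background subtraction, 16 without the dye term, 13 with the conflicting zygosity read as heterozygous, 12 with array series as a fixed block or scanning day as a random block, 11 with scanning day as a fixed block and 10 on the 7th series alone, and 18 of 19 with the deposited value table, whose hh1 replicate 2 column was left out. With only the groups compared in the fit, 4 of 9 did, and Wnt6, fz3 and nkd (posterior against stop-furrow) and tkv and Dad (extra-R8 against stop-furrow) lost their calls. Scanning day as a fixed block reversed fz3 in posterior fragments against the reference (-0.13), against the other conditions (-0.46) and against stop-furrow discs (-0.41), and nkd in the last (0.10). That block sets posterior replicates 2 to 4 against 1 ato1 array. The cause of these reversals and of the other changes was not tested.

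The number of calls against the reference (5) became 8 with print-tip loess or the series block and 9 with the fixed day block or the deposited table. Calls against the other conditions (6) became 3 with day as a random block or the other zygosity. Calls between posterior fragments and stop-furrow discs (7) became 4 on the 7th series, with the series block, with day as a random block or with only the groups compared, and 3 with day as a fixed block. Calls between extra-R8 and stop-furrow discs (2) became 1 without background subtraction, on the 7th series, with either day block, with the other zygosity or with only the groups compared, 4 with offset 10 or the dim filter, and 5 without negative scores. With 1 array left out these counts ran from 3 to 10, 2 to 9, 2 to 8 and 0 to 5 in that order, and the count for ato1 against hh1 stayed at 0 under all settings run. No paired analysis was possible because the replicate numbers were given in accession order and mark no shared sample. Groups of 2 to 4 arrays and dim spots, such as the dpp symbol probe, limit what can be detected.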

Other observations

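Spots under older identifiers, outside the rule that chose the members, are paired by RefSeq synonyms with fz (CG3646) and nkd (CG18224). Between posterior fragments and stop-furrow discs they differed by 0.14 (adjusted p = 0.74) and -0.01 (adjusted p = 0.97) in the limma fit, where the current fz and nkd probes were called. They were detected in the test channel on 21 and 24 of 27 arrays and ranged from -0.51 to 1.35 and from -0.51 to 0.44. Which transcripts these spots measure was not tested.

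In the deposited value table, the column of hh1 replicate 2 correlated at -0.14 with the scanner values of its own array and at 0.97 with those of Su(roDom)519 replicate 3, a sign opposite to that of the other 26 columns against their own arrays. The scanner values of hh1 replicate 2 correlated at 0.11 to 0.54 with the other hh1 arrays and were used in all fits from scanner files.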
